A study of Homo sapiens with 10 samples.

Results

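EYA1, the gene of a transcriptional co-activator and phosphatase, divided 10 human stem cell-derived sensory neuron cultures into 3 EYA1-off and 7 EYA1-on libraries, which were chosen by the measured EYA1 level alone. A library counted as EYA1-off where the deposited gene value of EYA1 was under 1 TPM (a level per transcript length, with an equal sum in every library) and as EYA1-on at 1 TPM or more, whatever its differentiation protocol. EYA1 stood at 0.372 TPM in nociceptor library 1, 0.462 TPM in nociceptor library 4 and 0.302 TPM in proprioceptor library 3, which are the EYA1-off libraries. In the 7 EYA1-on libraries it was lowest in mechanoreceptor library 1 at 4.88 TPM, had a median of 9.91 TPM and was highest in mechanoreceptor library 3 at 16.9 TPM. The values nearest to the threshold were therefore 0.462 TPM on the EYA1-off side and 4.88 TPM on the EYA1-on side, and these levels are a description, since they chose the sides.

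The cells came from 1 line, the human embryonic stem cell line RUES2, edited so that the red fluorescent protein tdTomato reports AVIL, the gene of the sensory neuron protein advillin (AVIL:tdT), and all cultures were taken at day 60 in vitro. EYA1-off held 2 nociceptor-protocol libraries (pain-sensing fate) and 1 proprioceptor-protocol library (muscle stretch-sensing fate). EYA1-on held 2 nociceptor, 3 mechanoreceptor (low-threshold touch fate) and 2 proprioceptor libraries, so no EYA1-off library came from the mechanoreceptor protocol. The labels name no agent beyond the protocol. The labels call the libraries biological replicates without saying whether they were separate differentiations, and give no word on sorting by reporter colour. The p-values therefore measure the spread between these libraries, and a side is a measured state and not a treatment. The design text names a droplet platform, whereas the files hold 1 column per culture, as bulk RNA does.

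Named genes received between 27891888 and 44541262 estimated counts in EYA1-off libraries and between 27891186 and 37920073 in EYA1-on libraries. Mitochondrially encoded genes took 1.82%, 6.36% and 2.51% of the counts in EYA1-off libraries and between 1.06% and 5.18% in EYA1-on libraries. The reporter gene AVIL had 1.17, 1.89 and 2.97 TPM in EYA1-off libraries and between 1.30 and 3.55 TPM in EYA1-on libraries, so the sides overlapped at the gene that marks sensory neurons. In bulk RNA, fewer cells of a type and less RNA per cell cannot be told apart, which holds for every level below. Where 3 values are given for EYA1-off, they stand for nociceptor library 1, nociceptor library 4 and proprioceptor library 3.

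EYA proteins do not bind DNA on their own. They are recruited by homeodomain proteins such as SIX4, with DACH proteins as further partners, and the network acts in cranial placodes and in early sensory neurons. Sympathetic and sensory neurons both arise from neural crest, and sympathetic neurons are specified by factors that include PHOX2A, HAND2 and GATA factors, which switch on the genes of noradrenaline synthesis, TH and DBH. PHOX2A is a homeodomain factor, and many factors of this class, though not all, bind sequences with an ATTA core.

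The promoters of PHOX2A, HAND2 and DBH are shown because these genes separated the sides, and so that ATTA cores can be looked for in them. They come from RefSeq (GRCh38.p14), run 5′ to 3′ on the strand of the gene from 250 bases before to 50 bases after its start, and have each ATTA or its complement TAAT in capitals. PHOX2A lies at chr11:72244127-72244426 on the minus strand, HAND2 at chr4:173530180-173530479 on the minus strand and DBH at chr9:133636113-133636412 on the plus strand.
PHOX2A: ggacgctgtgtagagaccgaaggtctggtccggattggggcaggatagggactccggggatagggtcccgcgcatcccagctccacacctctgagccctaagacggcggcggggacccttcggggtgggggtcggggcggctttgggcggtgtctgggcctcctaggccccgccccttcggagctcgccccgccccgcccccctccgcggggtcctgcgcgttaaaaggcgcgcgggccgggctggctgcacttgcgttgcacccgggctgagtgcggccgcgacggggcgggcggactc
HAND2: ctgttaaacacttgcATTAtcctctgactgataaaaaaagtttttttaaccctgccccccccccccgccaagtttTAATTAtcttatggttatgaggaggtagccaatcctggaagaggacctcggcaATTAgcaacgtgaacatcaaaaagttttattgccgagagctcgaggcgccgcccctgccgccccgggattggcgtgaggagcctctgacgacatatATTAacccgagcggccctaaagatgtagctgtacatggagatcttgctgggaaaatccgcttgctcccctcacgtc
DBH: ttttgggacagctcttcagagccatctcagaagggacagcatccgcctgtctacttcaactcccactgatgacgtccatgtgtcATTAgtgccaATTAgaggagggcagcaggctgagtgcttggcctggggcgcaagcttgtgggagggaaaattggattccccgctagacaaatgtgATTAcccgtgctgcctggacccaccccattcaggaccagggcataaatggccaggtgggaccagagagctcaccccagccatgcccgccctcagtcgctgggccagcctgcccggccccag
The PHOX2A window held no ATTA or TAAT, the HAND2 window held 5 matches, of which 2 overlap, and the DBH window held 3. Of 35116 promoter windows of the same length, 50.2% held at least 1 match on either strand, so a match is common and describes letters only. TH was not in the table of promoters.

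The genes of sympathetic and other autonomic neurons had the most negative median log2 fold change of the 33 gene lists. PHOX2A, HAND2, TFAP2B, GATA2, GATA3, TH, DBH and CHRNB4 were lower in each of the 3 EYA1-off libraries than in any of the 7 EYA1-on libraries. Of the 19 genes of the autonomic list, 18 passed the filter on low counts, and 17 of these 18 had a negative log2 fold change (EYA1-off minus EYA1-on), with a median of -4.37, where all 16129 genes tested had a median of -0.05. Including these, 9 of the 18 had all EYA1-off libraries below all EYA1-on libraries, against 1.6% of all genes tested. A gene can pass the filter through the side where it is high, so these counts describe the list and are not support for it.

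PHOX2A, a homeodomain factor of autonomic neurons (chromosome 11, 72239077 to 72244176), was at 0.603, 0 and 0 TPM in EYA1-off libraries, against 4.98 to 25.4 TPM with a median of 12.5 in EYA1-on libraries. The sides did not overlap, and 2 EYA1-off libraries had no count for it. Its log2 fold change was -6.47 ± 1.20 (SE; 3 against 7 libraries), with an adjusted p of 0.208 in edgeR's quasi-likelihood test with Benjamini-Hochberg adjustment. Because the sides did not overlap, each protocol that held both sides had to separate as well, so its values only describe the size. In nociceptor libraries PHOX2A had 0.603 and 0 TPM in EYA1-off against 25.4 and 12.5 TPM in EYA1-on. In proprioceptor libraries it had 0 TPM in the EYA1-off library against 6.36 and 10.9 TPM in the EYA1-on libraries.

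HAND2, the bHLH factor of the noradrenergic program (chromosome 4, 173526091 to 173530229), was at 0.222, 0 and 0.0731 TPM in EYA1-off libraries, against 1.43 to 18.5 TPM with a median of 7.94 in EYA1-on libraries (-6.66 ± 1.24). HAND2 was at or near 0 on the EYA1-off side and present in every EYA1-on library, with an adjusted p of 0.208 in edgeR. HAND2 has a neighbouring antisense gene, and the labels do not state that strand was kept, so where the pair overlaps its reads may not be told apart.

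The remaining factors of the program were low on both sides, and lower in EYA1-off. TFAP2B, a neural crest and sympathetic AP-2 factor, was at 0.0625, 0 and 0 TPM in EYA1-off libraries, against 0.504 to 7.15 TPM in EYA1-on libraries. GATA3, a zinc finger factor of sympathetic neurons, was at 0.0138, 0.0586 and 0 TPM in EYA1-off libraries, against 0.0720 to 3.46 TPM in EYA1-on libraries. GATA2, its relative, received 0, 0 and 1 counts in EYA1-off libraries, against 2 to 60 counts in EYA1-on libraries. The log2 fold changes of these 3 genes lay between -6.22 and -5.77, with standard errors of 1.37 to 1.49, and for genes so close to 0 they depend on the prior count and set no bound.

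**Figure D1:**
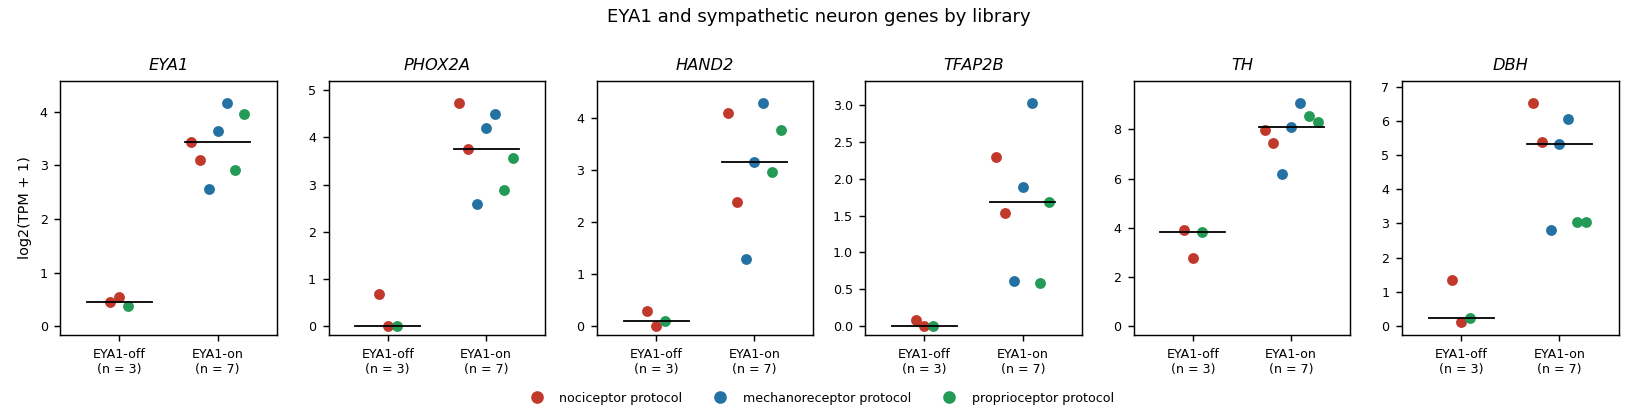
Each point is 1 library and each line a median, on a log2(TPM + 1) axis that differs in range between panels, with EYA1-off (n = 3) left of EYA1-on (n = 7) and colours for the protocols. EYA1 chose the sides; the other 5 genes show no overlap between the sides, and TH stays between 5.82 and 14.2 TPM in EYA1-off libraries.

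The enzymes and transporters of noradrenaline were lower in EYA1-off as well, though not all near 0. TH, the rate-limiting enzyme of catecholamine synthesis (chromosome 11, 2163929 to 2171815), had 14.2, 5.82 and 13.0 TPM in EYA1-off libraries, against 70.9 to 534 TPM with a median of 273 in EYA1-on libraries. TH thus did not overlap between the sides but was plainly detected on both, with 681, 198 and 551 counts in EYA1-off libraries. Its log2 fold change was -4.93 ± 0.77 (SE), with an adjusted p of 0.115 in edgeR, the smallest adjusted value among all genes, which it shares with others. DBH, which makes noradrenaline from dopamine (chromosome 9, 133636363 to 133659329), had 1.56, 0.0933 and 0.182 TPM in EYA1-off libraries, against 5.95 to 90.1 TPM with a median of 38.9 in EYA1-on libraries (-6.01 ± 1.37). The 3 lowest EYA1-on values of DBH belonged to mechanoreceptor library 1 and both EYA1-on proprioceptor libraries, at 5.95, 7.26 and 7.30 TPM.

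Some members overlapped between the sides. DDC, the decarboxylase that makes dopamine, had 0.788, 0.848 and 2.58 TPM in EYA1-off libraries and 1.83 to 17.4 TPM in EYA1-on libraries. SLC18A2, the vesicular monoamine transporter, had 2.60, 1.41 and 0.858 TPM in EYA1-off libraries and 2.36 to 37.1 TPM in EYA1-on libraries. SLC6A2, the noradrenaline transporter, had 0.240, 0 and 0.0156 TPM in EYA1-off libraries and 0.225 to 6.48 TPM in EYA1-on libraries. In each of these 3 genes a single EYA1-off library reached into the low end of the EYA1-on range, with log2 fold changes of -2.95 ± 0.85, -2.89 ± 0.94 and -4.63 ± 1.46 (SE).

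The cholinergic genes were split. SLC5A7, the choline transporter, had 1.25, 0.257 and 0.140 TPM in EYA1-off libraries, against 0.680 to 21.3 TPM with a median of 8.39 in EYA1-on libraries (log2 fold change -4.10 ± 0.97, SE). CHAT, the enzyme that makes acetylcholine, had 3.38, 3.42 and 0.445 TPM in EYA1-off libraries and 1.00 to 7.28 TPM in EYA1-on libraries (-0.72 ± 0.68). SLC18A3, the vesicular acetylcholine transporter, which lies inside the CHAT locus, had 11.0, 46.9 and 1.15 TPM in EYA1-off libraries and 12.7 to 55.6 TPM in EYA1-on libraries (-0.89 ± 0.78). CHAT overlapped in both EYA1-off nociceptor libraries, whereas SLC18A3 overlapped through nociceptor library 4 alone. The 11.0 and 1.15 TPM of SLC18A3 in the other EYA1-off libraries lay below every EYA1-on library. Both genes were lowest in proprioceptor library 3 among the EYA1-off libraries. SLC5A7 overlapped only because of mechanoreceptor library 1, the EYA1-on library with the least EYA1.

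The ganglionic nicotinic receptor subunits had smaller differences. CHRNB4 had 0.671, 3.52 and 4.22 TPM in EYA1-off libraries, against 6.44 to 19.9 TPM in EYA1-on libraries (log2 fold change -2.29 ± 0.57, SE). CHRNA3 had 10.3, 29 and 15.1 TPM in EYA1-off libraries and 24.5 to 78.2 TPM in EYA1-on libraries (-1.56 ± 0.42). CHRNB4 did not overlap, and CHRNA3 did through nociceptor library 4. NOS1 and SLC18A1, the neuronal nitric oxide synthase and the second vesicular monoamine transporter, overlapped, with log2 fold changes of 0.16 ± 0.51 and -1.09 ± 1.01.

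**Figure D2:**
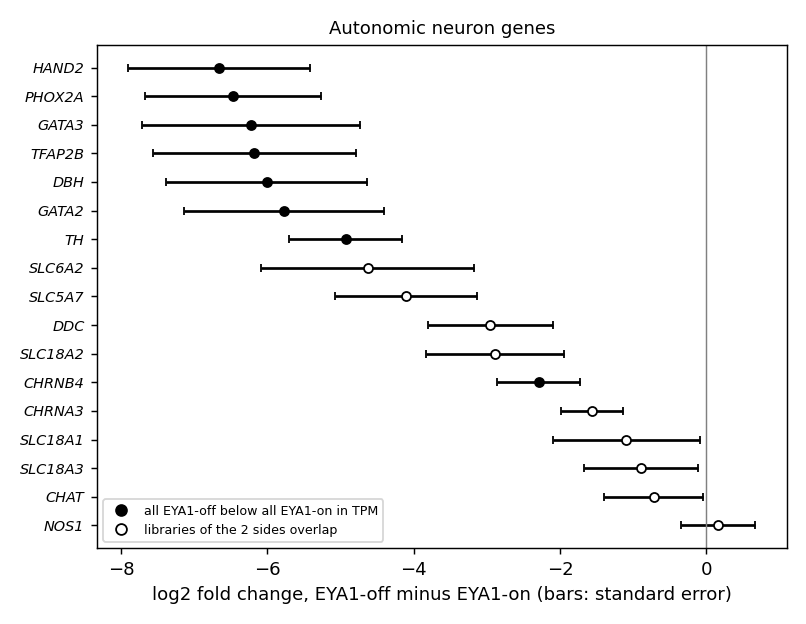
Points are edgeR log2 fold changes (EYA1-off minus EYA1-on) of 17 tested autonomic genes and bars are standard errors. Filled points mark the 8 genes whose EYA1-off libraries all lie below all EYA1-on libraries in TPM; the transcription factors and DBH lie leftmost, and NOS1, at 0.16, is the 1 gene right of 0.

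No gene passed an adjusted p of 0.05 in edgeR (0% called of 16129), where 1141 genes had an unadjusted p under 0.05, of which 565 (3.5%) were higher and 576 (3.57%) lower in EYA1-off. Unadjusted, 14 of the 18 autonomic genes were among the lower ones. DESeq2, run on the same counts as an alternative, called 132 genes, 34 higher (0.211%) and 98 lower (0.608%) in EYA1-off, and among the lower ones were the same 14 autonomic genes, among them TH (adjusted p 3.89e-13), PHOX2A (adjusted p 4.1e-12) and CHRNA3 (adjusted p 0.0484). Limma on log2(TPM + 1) called 3 genes, with TH and PHOX2A among them. The number of calls thus differed between tools, and 9 of the 14 autonomic genes that DESeq2 called kept the call whichever library was left out. Of all 132 genes that DESeq2 called, 42 kept the call in this way, 40 of them lower in EYA1-off.

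With protocol as a covariate the edgeR log2 fold changes were -6.99 for PHOX2A, -7.09 for HAND2, -4.84 for TH and -6.22 for DBH. Among the 4 nociceptor libraries alone they were -6.22, -6.33, -4.48 and -6.36 for the same genes in the same order. Other autonomic genes moved more: DDC was at -4.48 in nociceptor libraries against -2.95 in all libraries, SLC18A1 at -2.18 against -1.09, SLC18A3 at -0.34 against -0.89, and CHAT at 0.16 against -0.72. A test of whether the difference between the sides itself differed between the nociceptor and the proprioceptor protocol called none of 15820 genes (0%) in edgeR, with 269 at an unadjusted p under 0.05, and every adjusted p of the autonomic genes was 1. On the log2 scale the interaction, proprioceptor minus nociceptor, was -4.99 ± 3.04 (SE) for PHOX2A, -2.73 ± 2.28 for HAND2, -0.76 ± 1.06 for TH and 0.63 ± 1.70 for DBH. Those of the acetylcholine genes SLC18A3 (-4.58 ± 1.28, unadjusted p 0.00712) and CHAT (-3.63 ± 1.11, unadjusted p 0.0113) were further from 0 for their error. With a lone EYA1-off proprioceptor library, that test leaves wide intervals.

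Across the 7 EYA1-on libraries, whose EYA1 values did not decide anything beyond their side, HAND2 tended to be higher where EYA1 was higher. Its Pearson's r of log2(TPM + 1) was 0.86 (exact permutation p 0.0121, adjusted p 0.0363 over 6 relations, two-sided) and Spearman's rho 0.86 (exact permutation p 0.0238, adjusted p 0.0714). Without mechanoreceptor libraries 1 and 3, the 2 farthest from the median of EYA1, r was 0.62 (n = 5). PHOX2A had an r of 0.74 (exact permutation p 0.0633) and a rho of 0.64 (exact permutation p 0.139), TH an r of 0.76 (exact permutation p 0.0399, adjusted p 0.0798) and a rho of 0.64 (exact permutation p 0.139), and DBH an r of 0.47 (exact permutation p 0.272) and a rho of 0.57 (exact permutation p 0.2). The relation of TH rested on the 2 libraries, since r was 0.09 without them, and that of PHOX2A was 0.41 and of DBH -0.03. POU4F1, a sensory factor taken for comparison, had an r of -0.24 (exact permutation p 0.591) and a rho of -0.11 (exact permutation p 0.84), and an r of 0.38 without the 2 libraries. The autonomic genes were chosen because they separated the sides, and no protocol held more than 3 EYA1-on libraries, so no value within a protocol can be given. The permutations exchanged libraries across protocols, so these p-values cannot separate EYA1 from protocol, and the relations are a description.

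**Figure D3:**
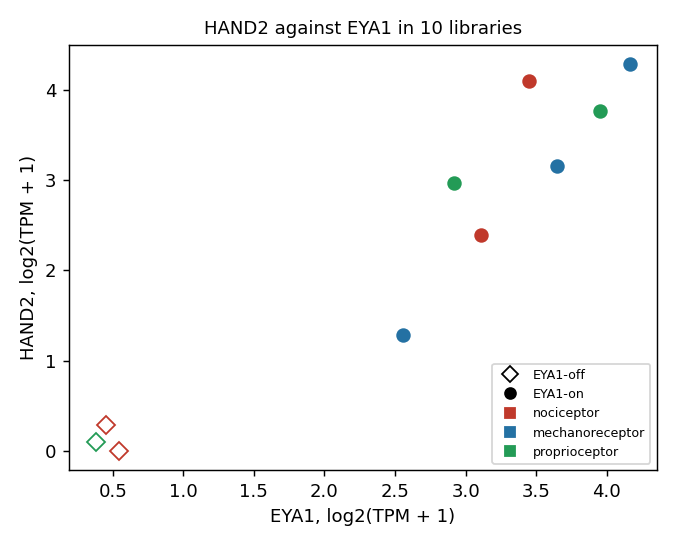
HAND2 against EYA1, both as log2(TPM + 1), with 1 point per library, open diamonds for EYA1-off, filled circles for EYA1-on and colours for the protocols. The 3 EYA1-off libraries sit at the lower left, at HAND2 values of 0 to 0.222 TPM, and the 7 EYA1-on libraries between 1.43 and 18.5 TPM.

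Neuropeptide genes had the next most negative median among the lists. Of its 20 genes 17 passed the filter, 15 of which had a negative log2 fold change, with a median of -1.55 beside -0.05 over all genes tested. CARTPT, PDYN, GRP, ADCYAP1 and TAC3, 5 of the 17, were lower in every EYA1-off library than in any EYA1-on library, against 1.6% of all genes. DESeq2 called the same 5 lower, against 0.608% of all genes tested. As with the autonomic list, a gene can pass the filter through the side where it is high. These counts therefore describe the list and are not support for it. The mean log2 CPM (counts relative to the library total, prior count 2) of the list was 2.47, 2.12 and 1.33 in EYA1-off libraries and 2.58 to 4.68 in EYA1-on libraries.

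CARTPT, which encodes the CART peptides (chromosome 5, 71719275 to 71721045), had 83.2, 217 and 49.9 TPM in EYA1-off libraries, against 441 to 5940 TPM with a median of 967 in EYA1-on libraries (log2 fold change -4.09 ± 0.92, SE; edgeR adjusted p 0.388). PDYN, the precursor of the dynorphin opioids (chromosome 20, 1978756 to 1994285), had 0.341, 0.209 and 0.399 TPM in EYA1-off libraries, against 2.41 to 28.8 TPM with a median of 8.78 in EYA1-on libraries (-5.26 ± 0.81; edgeR adjusted p 0.115). Neither gene overlapped, and CARTPT remained well expressed where EYA1 was off.

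GRP, gastrin-releasing peptide (chromosome 18, 59219189 to 59230771), had 3.12, 0 and 0.328 TPM in EYA1-off libraries, against 3.83 to 169 TPM with a median of 60.4 in EYA1-on libraries (log2 fold change -6.36 ± 1.43, SE). ADCYAP1, which encodes the peptide PACAP, had 7.32, 18 and 3.64 TPM in EYA1-off libraries, against 20 to 106 TPM in EYA1-on libraries (-2.44 ± 0.64). TAC3, the neurokinin B precursor, had 0.269, 0.110 and 0 TPM in EYA1-off libraries, against 0.786 to 42.2 TPM in EYA1-on libraries (-6.31 ± 1.67). The gaps were narrow for GRP, where nociceptor library 1 and mechanoreceptor library 1 lay side by side, and for ADCYAP1, where nociceptor library 4 reached 18 TPM.

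Other peptides of the list overlapped. SST, somatostatin, had 75.2, 597 and 1880 TPM in EYA1-off libraries and 457 to 13400 TPM in EYA1-on libraries. TAC1, the substance P precursor and a peptide of pain-sensing neurons, had 1690, 215 and 53.6 TPM in EYA1-off libraries and 39.8 to 1140 TPM in EYA1-on libraries. Nociceptor library 1 had the least SST and the most TAC1 of all 10 libraries. CALCA, the calcitonin gene-related peptide gene, was low on both sides, at 0.378, 0.174 and 0.229 TPM in EYA1-off libraries and 0.0562 to 2.04 TPM in EYA1-on libraries.

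Sensory neuron identity was present on both sides. Of 18 listed genes 17 were tested, 11 with a positive and 6 with a negative log2 fold change (median 0.43). POU4F1, the BRN3A factor of sensory neurons, had 8.11, 17.8 and 18 TPM in EYA1-off libraries and 1.6 to 15.4 TPM with a median of 3.68 in EYA1-on libraries (1.25 ± 0.58, SE; edgeR adjusted p 0.7). ISL1, which sensory and sympathetic neurons share, had 250, 315 and 417 TPM in EYA1-off libraries and 104 to 400 TPM in EYA1-on libraries. P2RX3, the ATP-gated channel of sensory neurons, had 173, 404 and 486 TPM in EYA1-off libraries and 54.2 to 468 TPM in EYA1-on libraries, and all 3 of these genes overlapped between the sides.

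TLX3, a homeobox factor of sensory neurons, had 6.57, 17.7 and 37.0 TPM in EYA1-off libraries and 3.24 to 16.3 TPM in EYA1-on libraries (log2 fold change 1.17 ± 0.50, SE). POU4F2, the BRN3B factor, had 3.85, 1.86 and 6.75 TPM in EYA1-off libraries and 0.123 to 3.16 TPM in EYA1-on libraries (1.95 ± 0.79). The members with the smallest p went the other way. TLX2, a homeobox factor of crest-derived autonomic, enteric and some sensory neurons, had 0.297, 0.0479 and 0.0609 TPM in EYA1-off libraries, against 0.543 to 5.92 TPM in EYA1-on libraries (-5.32 ± 1.09; edgeR adjusted p 0.334, DESeq2 adjusted p 7.94e-07). It was the 1 gene of this list without overlap, where 1.6% of all genes tested lay lower in every EYA1-off library. RUNX3, the factor of proprioceptors, had 0.507, 2.06 and 0.126 TPM in EYA1-off libraries and 0.919 to 7.72 TPM in EYA1-on libraries (-2.38 ± 0.71).

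Receptors for neurotrophins and for GDNF-family ligands were mixed: 5 of 10 tested genes had a positive and 5 a negative log2 fold change (median -0.03). NTRK2, the receptor TRKB for BDNF, which marks a class of touch neurons (chromosome 9, 84668522 to 85027054), had 23.0, 29.8 and 73.6 TPM in EYA1-off libraries, against 7.24 to 20.9 TPM with a median of 15.8 in EYA1-on libraries. It was the 1 member without overlap, where 1.23% of all genes lay higher in every EYA1-off library (log2 fold change 1.46 ± 0.34, SE; edgeR adjusted p 0.402, DESeq2 adjusted p 0.0339). NTRK3, the receptor TRKC, had 8.21, 10.7 and 0.988 TPM in EYA1-off libraries and 3.09 to 8.54 TPM in EYA1-on libraries, so both the highest and the lowest of the 10 values were on the EYA1-off side. RET, the receptor for GDNF-family ligands, had 35.4, 98.0 and 67.4 TPM in EYA1-off libraries and 23.8 to 87.1 TPM in EYA1-on libraries. The coreceptor GFRA3 ranged over 777, 25.8 and 4.05 TPM in EYA1-off libraries and 0.202 to 2560 TPM in EYA1-on libraries, the widest spread of the receptors named here.

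Among the 18 touch neuron markers, all tested, 12 had a positive log2 fold change (median 0.32), and NTRK2, SLC17A8 and MAF lay higher in every EYA1-off library while TH lay lower. Of all genes tested, 1.23% lay higher and 1.6% lower in this way. SLC17A8, the vesicular glutamate transporter VGLUT3 (chromosome 12, 100357074 to 100422055), had 3.40, 6.72 and 5 TPM in EYA1-off libraries, against 0.176 to 2.84 TPM with a median of 0.533 in EYA1-on libraries (2.64 ± 0.71, SE; edgeR adjusted p 0.467, DESeq2 adjusted p 0.0357). MAF, a factor of low-threshold mechanoreceptors, had 5.83, 8.10 and 7.35 TPM in EYA1-off libraries, against 1.51 to 5.29 TPM in EYA1-on libraries (1.13 ± 0.37; edgeR adjusted p 0.594, DESeq2 adjusted p 0.281). Both were above every EYA1-on library, and proprioceptor library 2 held the highest EYA1-on value of each. In mouse, VGLUT3 and TH both mark C-fibre touch neurons, and here they lay on opposite sides. PIEZO2, the touch channel, had 48.6, 341 and 172 TPM in EYA1-off libraries and 21.1 to 103 TPM in EYA1-on libraries, with nociceptor library 1 inside the EYA1-on range.

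Transmitter genes of glutamate and GABA, 7 tested of 9, all had a positive log2 fold change (median 0.55), and the mean log2 CPM of the list was 3.63 to 4.07 in EYA1-off libraries against 1.85 to 3.43 in EYA1-on libraries. Only SLC17A8 among its tested members separated the sides, where 1.23% of all genes tested lay higher in every EYA1-off library. SLC17A6, the vesicular glutamate transporter VGLUT2 of most sensory neurons, had 144, 102 and 127 TPM in EYA1-off libraries and 38.9 to 181 TPM in EYA1-on libraries, so the main glutamate transporter overlapped. Of 13 tested nociceptor markers, 2 lay lower in every EYA1-off library, ADCYAP1 and OPRM1, against 1.6% of all genes tested. OPRM1, the mu opioid receptor, had 0.509, 1.15 and 0.787 TPM in EYA1-off libraries, against 1.46 to 10.5 TPM in EYA1-on libraries (-1.97 ± 0.53, SE; DESeq2 adjusted p 0.0204).

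**Figure D4:**
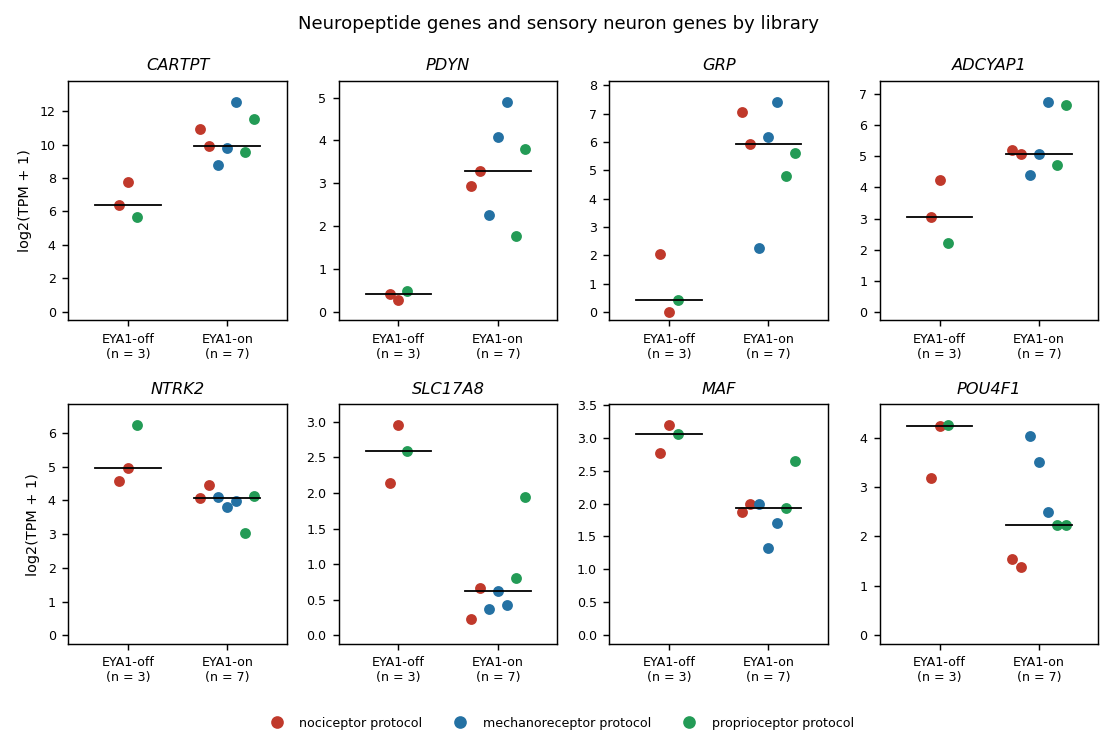
Each point is 1 library and each line a median, as log2(TPM + 1), with EYA1-off (n = 3) left of EYA1-on (n = 7). CARTPT, PDYN, GRP and ADCYAP1 lie lower and NTRK2, SLC17A8 and MAF higher in all 3 EYA1-off libraries, whereas POU4F1 overlaps, at 8.11 to 18 TPM in EYA1-off and 1.6 to 15.4 TPM in EYA1-on libraries.

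The partners of EYA1 did not separate the sides. Of the 11 genes of the EYA1, SIX4 and DACH1 families 7 were tested, 6 with a positive log2 fold change (median 0.20), and none was without overlap. SIX4, a homeodomain protein that recruits EYA proteins, had 1.84, 0.426 and 1.09 TPM in EYA1-off libraries and 0.355 to 1.55 TPM in EYA1-on libraries (log2 fold change 0.47 ± 0.41, SE). SIX5 had 1.55, 0.246 and 0.0714 TPM in EYA1-off libraries and 0.0672 to 2.66 TPM in EYA1-on libraries (-0.92 ± 1.22).

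DACH1, a corepressor partner, had 1.80, 7.21 and 63.6 TPM in EYA1-off libraries and 2.16 to 11.8 TPM in EYA1-on libraries (log2 fold change 2.05 ± 0.89, SE). That positive value came from proprioceptor library 3, without which it was -0.45 ± 0.82. The other EYA genes were low or alike. EYA3 had 6.58, 3.60 and 3.27 TPM in EYA1-off libraries and 2.07 to 4.91 TPM in EYA1-on libraries (0.33 ± 0.25), and EYA4 had 0.567, 0.106 and 0.118 TPM in EYA1-off libraries and 0.0456 to 0.675 TPM in EYA1-on libraries (0.14 ± 0.61). EYA2 stayed at or under 0.0616 TPM in EYA1-off libraries and 0.172 TPM in EYA1-on libraries and was not tested. DACH2 had 5.94, 1.61 and 3.05 TPM in EYA1-off libraries and 0.841 to 10.1 TPM in EYA1-on libraries (0.14 ± 0.83), and the low SIX2, SIX3 and SIX6 were not tested.

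Neurogenic bHLH factors, which drive progenitors into neurons, overlapped between the sides at day 60. Of 15 listed, 7 were tested, with log2 fold changes from -3.02 to 0.55 and a median of -0.04. NHLH2 had 0.0583, 0 and 0 TPM in EYA1-off libraries and 0.0386 to 0.625 TPM in EYA1-on libraries (-3.02 ± 1.23, SE). HES6, a bHLH factor of the HES family, was the most abundant member with 16.5, 56.7 and 69.7 TPM in EYA1-off libraries and 30.8 to 68.3 TPM in EYA1-on libraries (-0.04 ± 0.46). NEUROG1, which specifies sensory precursors, had no count in any library.

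The split by EYA1 also limits how many of its transcripts can be detected in EYA1-off libraries. Of 24 GENCODE transcripts of EYA1, 20 had a value above 0 in at least 1 EYA1-on library, against 9 in at least 1 EYA1-off library. These counts come from 7 and 3 libraries and include values such as 9.54e-07 TPM (EYA1-201 in proprioceptor library 3). They are therefore no trait of the EYA1-off libraries. EYA1-205, protein-coding, was the leading transcript by its mean over EYA1-on libraries, at 0.0663 TPM in EYA1-off and 2.98 TPM in EYA1-on libraries. EYA1-209, annotated as a target of nonsense-mediated decay, followed with means of 0.0386 TPM in EYA1-off and 1.84 TPM in EYA1-on libraries, and the protein-coding EYA1-206 with 0.026 TPM in EYA1-off and 1.62 TPM in EYA1-on libraries. Transcripts of 1 gene overlap over most of their length, so the division among them is an estimate, and counts of 39, 24 and 28 for the whole gene in EYA1-off libraries leave it coarse.

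The genes beside EYA1 on chromosome 8 (EYA1 spans 71197433 to 71548094) overlapped between the sides. This held for all 10 neighbours, the 5 nearest tested genes in each direction, with log2 fold changes from -1.31 ± 1.14 (SE) for MSC to 1.24 ± 1.5 for TRPA1. SLCO5A1 had the smallest p of them (1.20 ± 0.37; edgeR unadjusted p 0.0074, adjusted p 0.563). NCOA2 had 0.59 ± 0.35 and XKR9, the nearest tested gene on the lower-coordinate side, -0.80 ± 0.63. The median log2 fold change of the 554 tested genes of chromosome 8 was 0.05, within the range of -0.30 to 0.19 over all chromosomes.

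Among all genes, those named by rule as lower in EYA1-off, beside the ones above, were SPON1, HCRTR1, C5orf58, ENTPD3, SPHKAP, RAMP1, ELMO1 and VSTM2A. SPON1, the secreted axon guidance protein F-spondin, had 0.884, 0.619 and 0.572 TPM in EYA1-off libraries, against 2.40 to 21.8 TPM in EYA1-on libraries (log2 fold change -4.71 ± 0.70, SE; edgeR adjusted p 0.115). HCRTR1, an orexin receptor, had 0.510, 0.112 and 0.117 TPM in EYA1-off libraries, against 2.16 to 13.1 TPM in EYA1-on libraries (-5.06 ± 0.76; edgeR adjusted p 0.115). RAMP1, a subunit of the receptor for calcitonin gene-related peptide, had 3.64, 0.287 and 1.72 TPM in EYA1-off libraries, against 11.3 to 175 TPM with a median of 95.8 in EYA1-on libraries (-6.08 ± 1.20). The rule named only genes without overlap, so the separation of the sides at these genes was set by the choice. RAMP1 had the highest levels of these 3 genes.

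ENTPD3, an ectonucleotidase that breaks down extracellular ATP, had 1.94, 0.975 and 1.5 TPM in EYA1-off libraries, against 7.20 to 47.6 TPM in EYA1-on libraries (log2 fold change -4.76 ± 0.85, SE). ELMO1, which activates the GTPase RAC with DOCK proteins, had 26.4, 25.9 and 13.0 TPM in EYA1-off libraries, against 57.5 to 136 TPM in EYA1-on libraries (-2.41 ± 0.52). ELMO1 was at 13 TPM or more in every library. C5orf58, SPHKAP and VSTM2A had log2 fold changes of -4.88 ± 0.82, -2.46 ± 0.48 and -3.37 ± 0.76. DESeq2 called all 8 lower, where it called 0.608% of all genes tested lower. The 8 were chosen by their small p on the same counts, so these calls are no further support. IQCJ-SCHIP1, a read-through of 2 genes, had the smallest unadjusted p in edgeR (8.96e-06), but it shares exons with SCHIP1 (log2 fold change -0.56 ± 0.43), and the division between them is an estimate.

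Among the genes named by rule as higher in EYA1-off were NDST4 and FLVCR1. NDST4, an enzyme of heparan sulfate synthesis, had 23.5, 23.9 and 110 TPM in EYA1-off libraries, against 4.49 to 19.0 TPM in EYA1-on libraries (log2 fold change 2.13 ± 0.49, SE). FLVCR1, a membrane transporter, had 26.6, 30.5 and 27.2 TPM in EYA1-off libraries, against 6.17 to 17.0 TPM in EYA1-on libraries (1.01 ± 0.22). FLVCR1 was nearly the same in the 3 EYA1-off libraries, whereas NDST4 was far highest in proprioceptor library 3.

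The others were MGAT4C, CCDC7, GASK1A, RNPC3, INTU, ZNF83, MYO6, TTC14, ZNF518A, TBC1D32 and PLEKHA5, with log2 fold changes from 0.79 to 1.33. INTU and TBC1D32 act in building cilia, RNPC3 is a protein of the minor spliceosome and MYO6 a motor that moves toward the minus end of actin. DESeq2 called each of them except ZNF518A and PLEKHA5, both at an adjusted p of 0.0823, where it called 0.211% of all genes tested higher. They too were chosen by their small p on the same counts, so these calls are no further support. SOX11, a factor of immature and regenerating neurons in the injury response list, had 9.77, 8.78 and 10.0 TPM in EYA1-off libraries, against 3.08 to 8.73 TPM in EYA1-on libraries (0.92 ± 0.26, SE; DESeq2 adjusted p 0.193), a gap that mechanoreceptor library 1 nearly closed.

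Levels of pan-neuronal, mesenchyme, glia and proliferation genes overlapped between the sides. The 16 pan-neuronal genes had a mean log2 CPM of 7.19 to 8.36 in EYA1-off and 7.08 to 8.28 in EYA1-on libraries, with a median log2 fold change of 0.12 and no gene without overlap. The 16 tested fibroblast and mesenchyme genes lay between 1.19 and 5.13 in EYA1-off and 0.69 and 5.19 in EYA1-on libraries. The 16 Schwann and satellite glia genes lay between 2.99 and 5.94 in EYA1-off and 1.64 and 6.28 in EYA1-on libraries, and the 16 proliferation genes between 1.17 and 4.12 in EYA1-off and 0.29 and 4.25 in EYA1-on libraries. None of these 3 lists had a member without overlap. The 8 tested epithelial genes lay between 0.50 and 1.93 in EYA1-off and 0.66 and 3.50 in EYA1-on libraries. Of these, 7 had a negative log2 fold change (median -1.32). KRT18 of that list and SLC45A2 of the melanocyte list lay lower in every EYA1-off library, against 1.6% of all genes tested. SLC45A2 was at or under 0.678 TPM in every library. With the mesenchyme level as a covariate, edgeR called 21 genes, 1 higher and 20 lower in EYA1-off, among them PHOX2A, HAND2, TFAP2B, TH and DBH.

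**Figure D5:**
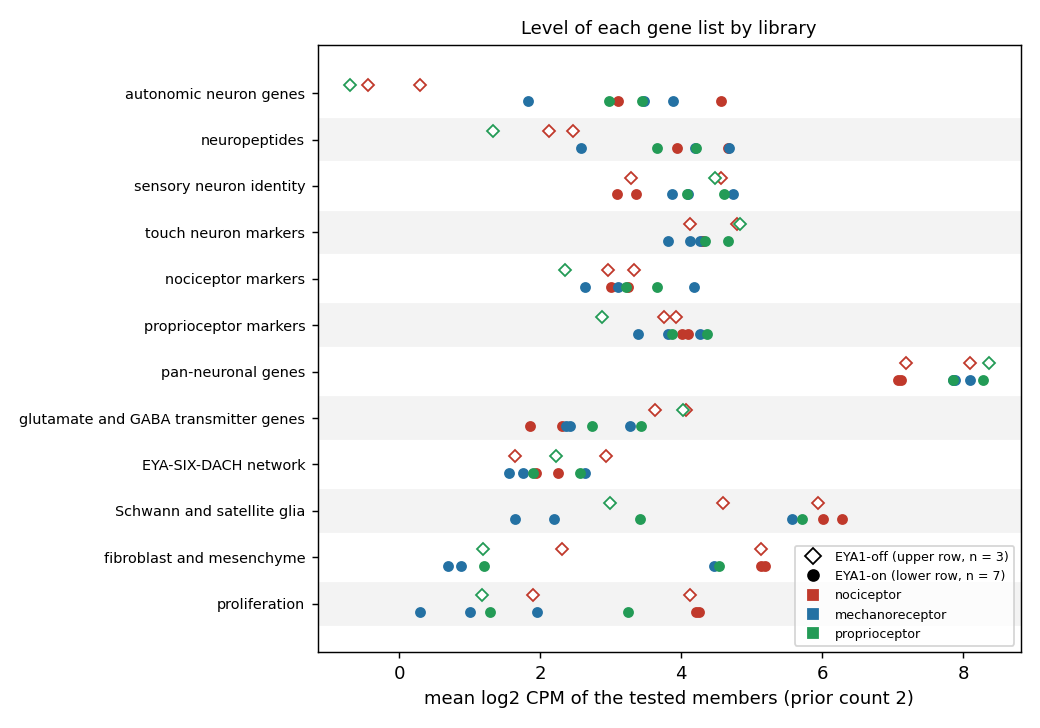
Mean log2 CPM of the tested members of 12 gene lists in each library, with EYA1-off as open diamonds (n = 3) above EYA1-on as filled circles (n = 7) in each row, coloured by protocol. The autonomic list lies between -0.70 and 0.29 in EYA1-off and 1.82 and 4.56 in EYA1-on libraries, whereas the mesenchyme, glia, proliferation and pan-neuronal lists overlap.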

How the data were processed

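Per the labels, RNA was extracted with Trizol, and cDNA was made with a Clontech Ultra Low kit and libraries with NexteraXT, neither of which is stated to keep strand. The submitters' processing notes name kallisto 0.50.1 and the build GRCh38.p14, and the authors deposited estimated counts rounded to whole numbers and TPM, per gene and per transcript. How transcripts were summed to genes is not given in the sources used here. The 1 entry without a name, with 0.733% to 1.66% of a library's counts and up to 8.80% of its TPM, was left out, which left 30357 genes.

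The sides were set by the deposited TPM of EYA1. Counts were tested with edgeR 4.0.16 (R 4.3.3; filterByExpr, TMM, quasi-likelihood F test, two-sided, Benjamini-Hochberg over 16129 genes without EYA1), and DESeq2 1.42.0 and limma 3.58.1 on log2(TPM + 1) were alternatives. Fold changes are EYA1-off minus EYA1-on with standard errors. The procedure was tested on simulated data.

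The members and the 33 gene lists were chosen with earlier results of these data known. Genes named were all tested genes of the EYA, bHLH and receptor lists, up to 4 of smallest p from each other list, and the 15 of smallest p in each direction without overlap and with a mean of at least 5 TPM on the higher side. The other genes, including the rest of the autonomic list, were named after their values were seen. Libraries were compared as counts for copies, and none was one. Some genes of the lists are counted but not reported here by name.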

Additional observations from a re-analysis of the deposited data

Results flagged for a closer look

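Within the 7 EYA1-on libraries, 98 genes and lists were checked for a single library far from the others, on log2(TPM + 1) or mean log2 CPM, and 4 had one, where chance gives about 1 in 20. The 3 EYA1-off libraries are too few for this check. SLC5A7 was at 0.680 TPM in mechanoreceptor library 1, against 7.70 to 21.3 TPM in the other EYA1-on libraries. That library also had the least EYA1, PHOX2A, HAND2, TH and DBH of the EYA1-on side. SLC17A8 was at 2.84 TPM in proprioceptor library 2, against 0.176 to 0.755 TPM in the other EYA1-on libraries, and it was still below all EYA1-off libraries. GATA3 was at 3.46 TPM in nociceptor library 2, against 0.0720 to 0.813 TPM in the others. MYO6 was at 4.53 TPM in proprioceptor library 1, against 11.5 to 19.5 TPM in the others.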

How the results depend on the processing

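The count of genes called was 0 in edgeR and stayed 0 with DESeq2's size factors, with no filter or a stricter one, with protocol as a covariate, in nociceptor libraries alone, in nociceptor and proprioceptor libraries, and with the pan-neuronal level as a covariate. It was 132 in DESeq2, 3 in limma on log2(TPM + 1), 21 with the mesenchyme level as a covariate and 566 in DESeq2 with protocol as a covariate (231 higher, 335 lower). Leaving out 1 library gave 0 to 3 calls in edgeR, the 3 (IQCJ-SCHIP1, TH and HCRTR1) without mechanoreceptor replicate 1, and 75 to 211 in DESeq2. The DESeq2 count moved by over 1.5 times without nociceptor replicate 1 (211), nociceptor replicate 2 (84), mechanoreceptor replicate 3 (75) or proprioceptor replicate 3 (80), and 42 of the 132 genes were called throughout, 40 of them lower. The pan-neuronal covariate, the DESeq2 fit with protocol and the DESeq2 fits without a library were chosen after seeing the data; the cause of these differences was not tested. With the replicate number as a block, edgeR called 0 genes (668 at an unadjusted p under 0.05). Same-numbered libraries correlated at a median of -0.11 (9 pairs, -0.63 to 0.49) and others at 0.10 (24 pairs, -0.6 to 0.79). These wide ranges cannot tell whether the numbers pair the libraries. The library names run in order of replicate number, and what that order means is not stated.

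The autonomic median of -4.37 lay between -5.16 and -1.73 across settings. The value of -1.73 is on log2(TPM + 1), which understates low genes by construction. It also covers fewer genes, since that setting kept only genes with a mean of at least 1 TPM. This left out GATA2, GATA3, SLC18A1 and NOS1. Of the 64 genes tested across settings, the direction turned only in genes that overlapped. CHAT was 0.16 in nociceptor libraries only. NTRK3 was -0.12 in limma, -0.55 with protocol, -0.51 in nociceptor and proprioceptor libraries, -0.95 with the replicate block and -0.54 in DESeq2 with protocol. RET was -0.09 and SIX5 1.4 with the block. EYA4 was -0.05 with protocol, 0 in nociceptor and proprioceptor libraries and -0.03 in DESeq2 with protocol. Leaving out 1 library gave -0.59 to 0.65 for NTRK3 (lowest without nociceptor replicate 4, 0 without nociceptor replicate 2), -0.16 to 0.66 for RET (lowest without nociceptor replicate 4), -0.45 to 2.63 for DACH1 (lowest without proprioceptor replicate 3) and, lowest without nociceptor replicate 1 in each, -0.03 to 0.83 for SIX4, -0.49 to 0.62 for EYA4 and -0.77 to 0.57 for DACH2. EYA1 received 24 to 39 counts per EYA1-off library. Over the 23 settings, the largest adjusted p was 0.874, with the replicate block, for each gene whose DESeq2 value is given above, and the smallest was 3.89e-13 for TH, 4.1e-12 for PHOX2A, 7.94e-07 for TLX2, 0.0016 for SLC17A8, 0.00703 for KRT18, 0.0137 for PLEKHA5, 0.0204 for OPRM1, 0.0339 for NTRK2 and SOX11, 0.0484 for CHRNA3 and 0.0655 for ZNF518A.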

Other observations

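HOX genes, which record position along the body axis, and a keratin are given here as values; no HOX gene passed an adjusted p of 0.05 in edgeR or DESeq2. HOXB3 had 5.41, 11.2 and 7.67 TPM in EYA1-off libraries, against 0.727 to 2.00 TPM in EYA1-on libraries, with no overlap. Its estimated counts differed less, at 114, 203 and 212 in EYA1-off and 32 to 110 in EYA1-on libraries, and the log2 fold change from the counts was 1.18 ± 0.42 (SE; edgeR adjusted p 0.659, DESeq2 adjusted p 0.315). TPM is corrected for the length of the transcripts that received the reads and counts are not, so the measures can part where a gene has transcripts of different length. HOXB5 overlapped, at 3.80, 8.38 and 4.94 TPM in EYA1-off and 7.65 to 21.8 TPM in EYA1-on libraries (-1.28 ± 0.45; DESeq2 adjusted p 0.283). KRT18, a keratin of simple epithelia, had 20.3, 8.72 and 14.3 TPM in EYA1-off libraries, against 23.9 to 79.8 TPM in EYA1-on libraries (-1.72; DESeq2 adjusted p 0.0126).

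GAD2, an enzyme that makes GABA, did not pass the filter on low counts. It had 7, 24 and 18 counts in EYA1-off libraries, against 4 counts in nociceptor library 2 and 0 in the other 6 EYA1-on libraries. It was singled out after its values were seen and was not tested.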
